A study of Mus musculus with 10 samples.

Results

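The genes described here encode the phosphoinositide 3-kinase (PI3-kinase), AKT and FOXO pathway and a set of its transcriptional targets, in lymphatic endothelial cells (LEC), which form the wall of lymphatic vessels, sorted from mouse melanomas. They were chosen by symbol and comprise 41 of the 23510 genes in the deposited table: 24 signalling genes (receptor and adaptors, PI3-kinase subunits, AKT and its kinase, the mTOR branch and the FOXO factors) and 17 FOXO target genes. All 41 had enough counts to be tested. The study used C57BL/6N mice that carried fragments of an MT-ret melanoma on the flank. Of 10 mice, 5 received control IgG and 5 an antibody against angiopoietin-2 (anti-Ang2) by intraperitoneal injection, and all were killed 12 hours later. LEC were isolated by flow cytometry and each mouse gave 1 library of total RNA made from 0.5 ng, so that n = 5 in each group. Per the labels, both groups carried the same tumour and differed in the antibody. The series names its replicates as independent. The sources used here do not give the antibody dose, the sort gate, or the age and sex of the mice.

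Angiopoietin-2 is a secreted ligand of the endothelial receptor tyrosine kinase Tie2, encoded by Tek. Activated Tie2 and other growth factor receptors recruit PI3-kinase, a dimer of a regulatory and a catalytic subunit, whose lipid product brings AKT and its activating kinase to the membrane. AKT phosphorylates FOXO transcription factors, which then leave the nucleus. When AKT activity is low, FOXO factors stay in the nucleus and switch on genes of quiescence, stress resistance, protein breakdown and autophagy, as well as genes that feed back on the pathway itself. AKT also relieves the block that the TSC proteins place on mTOR, a kinase that drives protein synthesis. In endothelium FOXO1 is the main family member and Angpt2 itself is one of its known targets. RNA levels report none of the phosphorylation steps.

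The libraries held 38090933 to 83850341 gene counts, and mitochondrial genes took 0.477% to 0.917% of them. Levels are given as CPM, counts scaled to a common library size after a correction for library composition. The 9 lymphatic markers were all present and summed to 17959 to 21261 CPM in IgG and 14950.4 to 19985 CPM in anti-Ang2 libraries. Of them 1, the chemokine Ccl21a, passed the test, as lower (883 against 379 CPM on average, -1.22 on the log2 scale, edgeR adjusted p = 0.00447). The 8 blood endothelial markers summed to 3594 to 5882 CPM and 2523 to 5230.1 CPM. Markers of other cells were also found. The 12 melanoma markers summed to 269 to 1862 CPM in IgG and 1134 to 5579.5 CPM in anti-Ang2 libraries. All 12 were higher on average after anti-Ang2, and 1, Pmel, passed the test (2.28 on the log2 scale, edgeR adjusted p = 0.0496). Anti-Ang2 libraries 1, 2 and 3 had the highest melanoma sums (5579.5, 3976 and 4573 CPM), while anti-Ang2 4 and 5 (1715 and 1134.5 CPM) lay among the IgG libraries. The 15 macrophage and monocyte markers summed to 25.2 to 181 CPM and 40.4 to 264 CPM, with Fcgr1 and Itgam near 0, and none of the 13 tested passed. Leukocyte and lymphocyte markers reached at most 18.4 and 19.7 CPM, and fibroblast and mural markers 243 to 789 CPM and 454 to 1048 CPM. Of these 9 fibroblast and mural markers 4 had positive log2 fold changes (Dcn, Cspg4, Lum and Acta2). The others, among them Col1a1 and Col3a1, had negative ones, and none of the 9 passed the test. In the principal component analysis anti-Ang2 5 stood apart on the second component and anti-Ang2 4 on the third. In such bulk samples fewer cells of a type and less RNA per cell cannot be told apart.

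After anti-Ang2, 6 of the 41 genes passed the test, and they lay at different levels of the pathway. Ddit4, an inhibitor of mTOR signalling, the adaptor Shc1, the PI3-kinase regulatory subunit Pik3r1 and the stress protein Sesn1 fell. Fbxo32 and Klhl24, which both encode parts of ubiquitin ligases, rose. The threshold was an adjusted p of 0.05 (Benjamini-Hochberg, over 16240 genes) in edgeR's quasi-likelihood test. Those 6 are 14.6% of the members, against 4.13% of all tested genes (1.34% called higher and 2.8% called lower). The members were chosen with earlier results of these data known, so their shares are no independent evidence. Of the 24 signalling genes 3 fell and none rose (12.5%). At an unadjusted p under 0.05 were 8 of these 24, of which 4 were positive. So were 8 of the 17 FOXO targets (6 positive) and 2962 of all 16240 tested genes (1484 positive). By DESeq2 1 signalling gene, Irs2, passed as higher. Among the 17 FOXO targets 2 rose and 1 fell (17.6%). The median log2 fold change was 0.09 over the signalling genes and 0.21 over the FOXO targets, against 0.01 over all tested genes. Positive values were found for 16 of 24 signalling genes, 11 of 17 targets and 52.0% of all tested genes. Of the 41 signs, 11 changed after adjustment for the melanoma sum and 10 without anti-Ang2 1, 2 and 3, none of them of a called gene. The 5 anti-Ang2 libraries all lay on one side of the 5 IgG libraries for 8 members, beside 6.1% of all tested genes: Fbxo32, Klhl24, Gadd45a and Rictor were higher, and Ddit4, Shc1, Pik3r1 and Sesn1 lower.

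**Figure D1:**
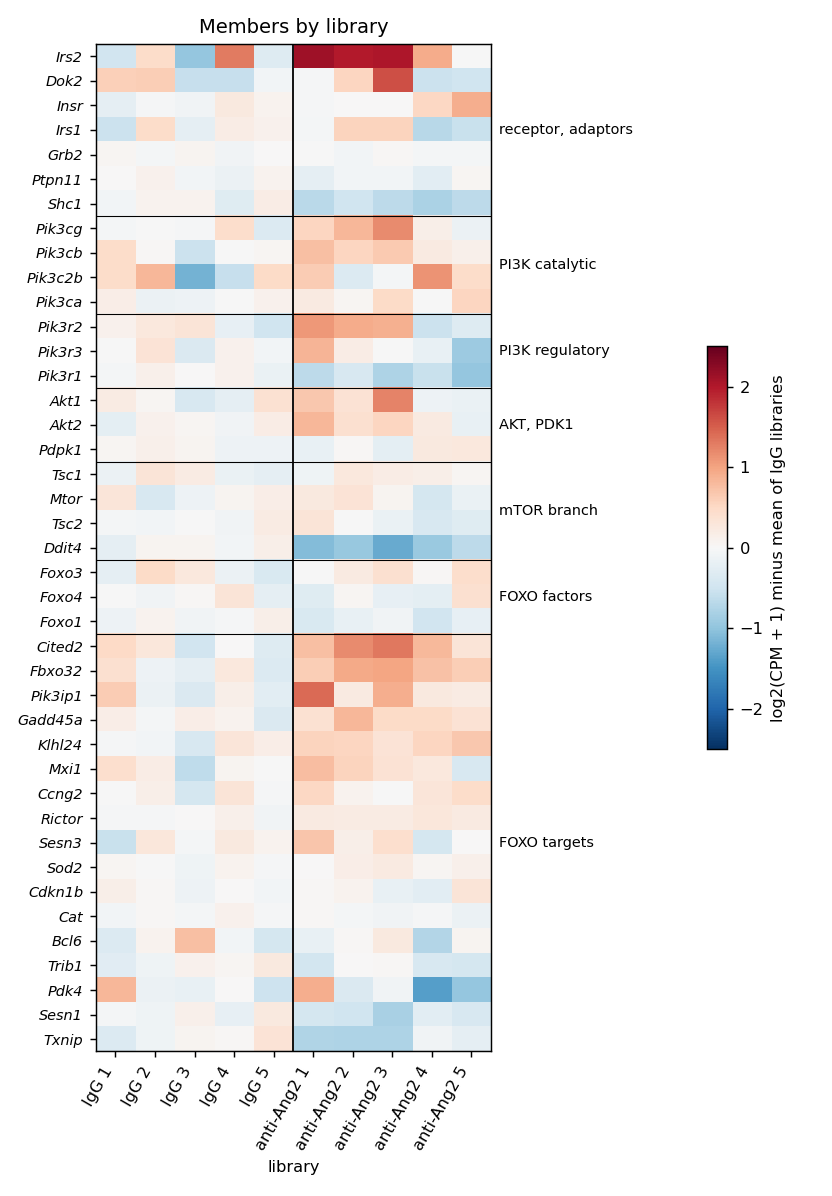
Heat map of the 41 genes (rows, grouped by role) in the 10 libraries (columns), coloured by log2(CPM + 1) minus the mean of the 5 IgG libraries. The rows of Ddit4, Shc1 and Pik3r1 are below the IgG mean in all 5 anti-Ang2 libraries, and Irs2 is highest in anti-Ang2 1, 2 and 3.

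**Figure D2:**
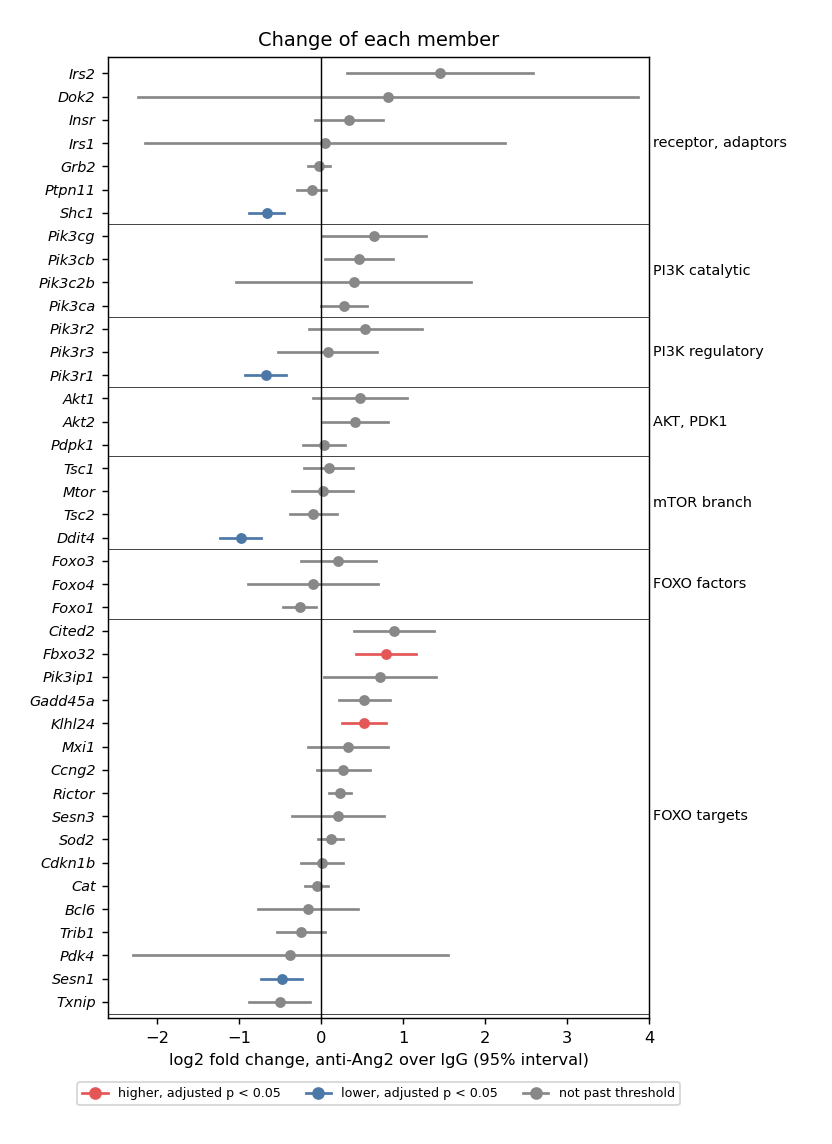
Log2 fold change of each gene, anti-Ang2 over IgG (x axis), with its 95% interval as a line, for 5 libraries per group; genes are grouped by role. Coloured points passed the adjusted p threshold of 0.05: 4 lie below 0 and 2 above, and the intervals of Dok2, Irs1 and Pdk4 are the widest.

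Among the receptor and its adaptors, Shc1 fell and the other 6 did not pass the test. Shc1 encodes an adaptor that binds phosphorylated receptors and passes the signal to Grb2 and Ras. Shc1 held 601, 669.9, 663, 509 and 711 CPM in IgG libraries 1 to 5 and 393, 444, 398, 363 and 395 CPM in anti-Ang2 libraries 1 to 5. Every anti-Ang2 library lay below every IgG library. Shc1 was 1.58-fold lower, with a log2 fold change of -0.66 ± 0.10 (SE, 95% interval -0.88 to -0.45), edgeR adjusted p = 0.0032, and its gene lies at chr3:89418443-89430027, plus strand (mm10). It passed in all 10 fits that each left out 1 library (leave-one-out, adjusted p 0.0021 to 0.013), but not adjusted for the melanoma marker sum, -0.62 (adjusted p = 0.0811), or with the macrophage sum, -0.61 (adjusted p = 0.0597). The adaptor Grb2, which Shc1 recruits, held 103 ± 4.92 CPM (IgG) against 100.4 ± 3.08 CPM (anti-Ang2) (SD, n = 5), and its 95% interval on the log2 scale ran from -0.16 to 0.10. Ptpn11, a phosphatase that acts downstream of receptors, was at 85.8 ± 6.11 CPM (IgG) against 79.2 ± 6.96 CPM (anti-Ang2) (-0.12 ± 0.08, adjusted p = 0.513). The insulin receptor Insr was at 35.4 ± 4.54 CPM (IgG) against 44.7 ± 14.3 CPM (anti-Ang2) (0.34 ± 0.19, adjusted p = 0.396). Irs1, an insulin receptor substrate, and Dok2, an adaptor that docks on Tie2, were close to absent, with 0 to 101 and 0 to 182 counts per library. Of the Irs1 exon bases 30.9% overlap Gm9747 on the opposite strand.

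Irs2, the other insulin receptor substrate and a known FOXO target in liver, had the largest fold change of the members but did not pass the test. Irs2 held 6.47, 13.4, 4.37, 24.8 and 7.37 CPM in IgG libraries 1 to 5 and 44.5, 40.1, 41.3, 18.8 and 9.32 CPM in anti-Ang2 libraries 1 to 5. The levels of anti-Ang2 1, 2 and 3 lay above all IgG libraries, and those of anti-Ang2 4 and 5 within their range. Irs2 had a log2 fold change of 1.45 ± 0.52 (SE, 95% interval 0.31 to 2.59), edgeR adjusted p = 0.154. The same 3 anti-Ang2 libraries were highest in Irs2 and in the melanoma sum, and IgG 3 was lowest in both. Adjusted for the melanoma sum the value was -0.16 ± 0.24 (adjusted p = 0.832). Without anti-Ang2 4 and 5 Irs2 passed, at 1.89 (adjusted p = 0.0469), and without anti-Ang2 1, 2 and 3 it was 0.31 (adjusted p = 0.854). DESeq2 gave 1.46 (adjusted p = 0.0258). The part of melanoma RNA in these values was not tested beyond the covariate fit. Per length, Irs2 made up 95.6 ± 2.39% of the summed FPKM of Irs1 and Irs2 in IgG libraries, and 98.8 ± 1.02% after anti-Ang2.

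None of the 4 catalytic PI3-kinase genes passed the test. All had positive log2 fold changes, with a median of 0.43, but Pik3cg was -0.020 without anti-Ang2 1, 2 and 3 and Pik3c2b -0.061 without anti-Ang2 4 and 5. Pik3ca and Pik3cb encode the alpha and beta catalytic subunits that serve most tissues. Pik3ca held 36.7, 29.2, 29.5, 32.2 and 34.9 CPM in IgG libraries 1 to 5 and 37.9, 33.6, 45.8, 32.3 and 47.4 CPM in anti-Ang2 libraries 1 to 5. In 3 anti-Ang2 libraries Pik3ca lay above all IgG libraries. Pik3ca had a log2 fold change of 0.28 ± 0.13 (SE, 95% interval -0.0013 to 0.56), edgeR adjusted p = 0.277. Pik3cb held 31.1, 22.7, 15, 22.1 and 23.1 CPM in IgG libraries 1 to 5 and 38.1, 32.6, 35.8, 26 and 24.3 CPM in anti-Ang2 libraries 1 to 5. The groups overlapped, with 3 anti-Ang2 libraries above the IgG range, and the log2 fold change was 0.46 ± 0.19 (SE, 95% interval 0.047 to 0.87), edgeR adjusted p = 0.218. Pik3cb was 0.16 (adjusted p = 0.838) adjusted for the melanoma sum and 0.13 (adjusted p = 0.837) without anti-Ang2 1, 2 and 3. Pik3cg, the gamma subunit best known from leukocytes, held 5.76 ± 1.39 CPM (IgG) against 9.02 ± 3.63 CPM (anti-Ang2) (0.65 ± 0.29, adjusted p = 0.261). The macrophage sum of every anti-Ang2 library was above that of 4 IgG libraries, and with that sum as a covariate Pik3cg was 0.37 (adjusted p = 0.787). IgG 1 had a macrophage sum of 181 CPM with Pik3cg at 5.45 CPM, and anti-Ang2 4 had 154 CPM with Pik3cg at 6.39 CPM. Anti-Ang2 3 was highest in both (264 and 14.2 CPM). The part of macrophage RNA in Pik3cg was not tested beyond the covariate fit. Adjusted for the melanoma sum Pik3cg was 0.031 (adjusted p = 0.977). Without anti-Ang2 4 and 5 Pik3cg passed, at 0.95 (adjusted p = 0.0492), and without anti-Ang2 1, 2 and 3 it was -0.020 (adjusted p = 0.983). The class II enzyme Pik3c2b was low, at 2.04 ± 1.48 CPM (IgG) against 2.7 ± 1.45 CPM (anti-Ang2) (0.40 ± 0.66, adjusted p = 0.826). Shares of the class I catalytic subunits by FPKM, a level per length, placed Pik3ca first (40.5 ± 3.78% in IgG, 36.6 ± 8.8% in anti-Ang2) and Pik3cb beside it (35.3 ± 5.05% and 36 ± 2.09%), within their spread. Pik3cd, the delta subunit, took 14.6 ± 3.29% and 16.7 ± 6.01%, and Pik3cg 9.62 ± 2.18% and 10.7 ± 2.97%.

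Of the regulatory subunits Pik3r1 fell. It encodes the alpha regulatory subunit, which stabilises the catalytic subunit and docks it on receptors. Pik3r1 held 53.4, 60.8, 55.7, 59.9 and 49.1 CPM in IgG libraries 1 to 5 and 34.8, 42.1, 32.2, 37.4 and 27.8 CPM in anti-Ang2 libraries 1 to 5. No anti-Ang2 library reached the lowest IgG library. Pik3r1 was 1.6-fold lower, with a log2 fold change of -0.68 ± 0.11 (SE, 95% interval -0.93 to -0.43), edgeR adjusted p = 0.0071 (chr13:101680563-101768217, minus strand). It passed in each of the 10 leave-one-out fits (adjusted p 0.00555 to 0.0254) and adjusted for the melanoma sum, -0.83 (adjusted p = 0.0401), but not with the macrophage sum, -0.68 (adjusted p = 0.0839). Pik3r2, the beta regulatory subunit, was at 39.6 ± 9.08 CPM (IgG) against 57.6 ± 26.8 CPM (anti-Ang2) (0.54 ± 0.32, adjusted p = 0.419). Its levels in anti-Ang2 1, 2 and 3 lay above the IgG range. Pik3r2 passed without anti-Ang2 4 and 5, at 0.95 (adjusted p = 0.0172), but was -0.48 (adjusted p = 0.355) without anti-Ang2 1, 2 and 3 and -0.022 (adjusted p = 0.988) adjusted for the melanoma sum. Pik3r3 was at 24.8 ± 4.51 CPM (IgG) against 26.2 ± 11.9 CPM (anti-Ang2) (0.08 ± 0.28, adjusted p = 0.925), and 24.3% of its exon bases are shared with another annotated gene on the same strand, so its counts are uncertain. By FPKM, Pik3r1 took 28.3 ± 2.54% of the 3 regulatory subunits in IgG libraries against 17.4 ± 6.57% in anti-Ang2 libraries. Pik3r2 took 47.7 ± 6.12% and 60.2 ± 9.28%, and Pik3r3 24 ± 4.18% and 22.3 ± 4.85%. The Pik3r1 share was lowest in the 3 libraries with the most melanoma marker RNA (10.8%, 15.3% and 12.7%). In anti-Ang2 4 (26.4%) it lay within the IgG range of 26.1% to 31.3%, and in anti-Ang2 5 (22.0%) below it. Pik3r2 was highest in anti-Ang2 1, 2 and 3 (83.6, 74.2 and 72.9 CPM), whereas Pik3r1 in CPM was lowest in anti-Ang2 5 (27.8 CPM).

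**Figure D3:**
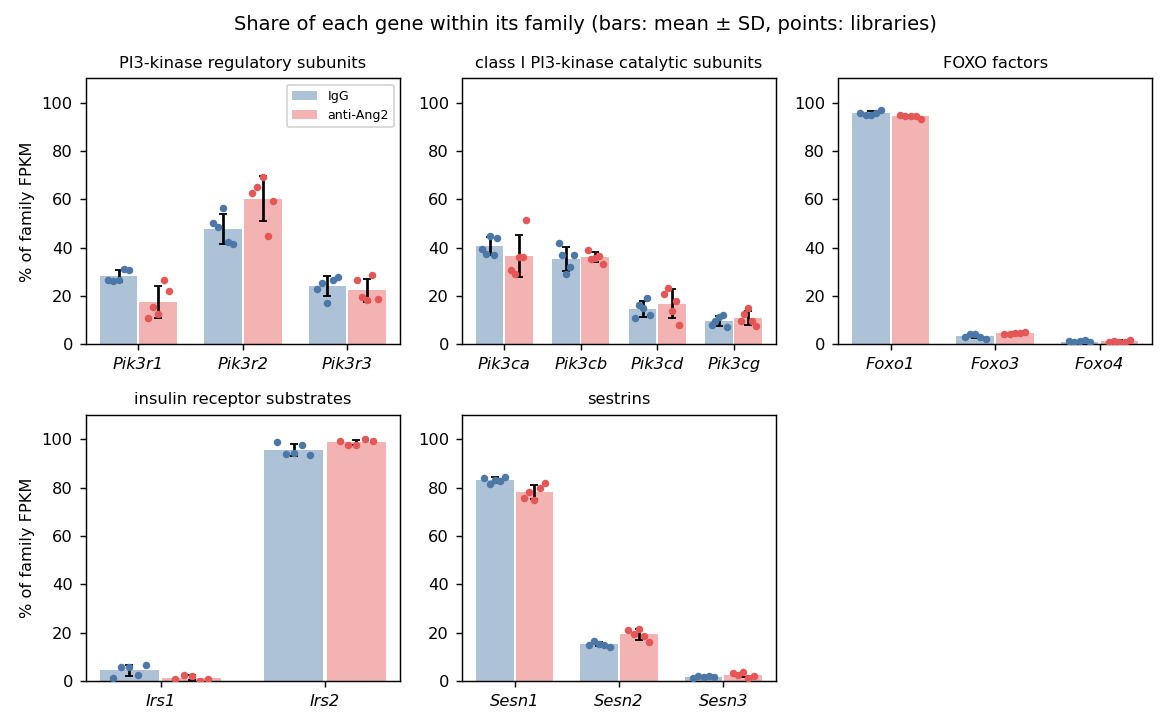
Share of each gene in the summed FPKM of its family (y axis, percent), with 1 point per library, bars at the group mean and SD as error bars, for IgG and anti-Ang2 libraries (n = 5 each). Pik3r1 takes a mean of 28.3% of the regulatory subunits in IgG libraries against 17.4% after anti-Ang2, and Foxo1 takes 95.6% and 94.3% of the FOXO factors.

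None of the 3 genes of the AKT step passed the test. Akt1 held 119, 106, 77.5, 88.4 and 134 CPM in IgG libraries 1 to 5 and 165, 132, 245, 94.6 and 91.2 CPM in anti-Ang2 libraries 1 to 5. In anti-Ang2 1 and 3 Akt1 lay above the IgG range, and the other 3 were within it. The log2 fold change of Akt1 was 0.47 ± 0.26 (SE, 95% interval -0.10 to 1.04), edgeR adjusted p = 0.39, and it was -0.015 adjusted for the melanoma sum and -0.19 without anti-Ang2 1, 2 and 3. Akt2 held 14.8, 19.2, 18.5, 16.6 and 20.2 CPM in IgG libraries 1 to 5 and 32.5, 23.7, 26.3, 21 and 15.6 CPM in anti-Ang2 libraries 1 to 5. For Akt2 4 anti-Ang2 libraries lay above all IgG libraries, with a log2 fold change of 0.42 ± 0.18 (SE, 95% interval 0.020 to 0.81), edgeR adjusted p = 0.248. Without anti-Ang2 4 and 5 Akt2 passed, at 0.61 (adjusted p = 0.0381), while it was 0.024 (adjusted p = 0.967) without anti-Ang2 1, 2 and 3 and 0.091 (adjusted p = 0.906) adjusted for the melanoma sum. Pdpk1, which encodes the kinase that activates AKT, was at 46.6 ± 3.78 CPM (IgG) against 47.7 ± 7.72 CPM (anti-Ang2) (0.03 ± 0.12, adjusted p = 0.928).

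In the mTOR branch Ddit4 fell, with the smallest adjusted p of all members. Ddit4 encodes a protein induced by stress and hypoxia that activates the TSC proteins and so restrains mTOR; in several tissues it is also induced by FOXO factors. Ddit4 held 85.6, 105, 105, 94.8 and 110.3 CPM in IgG libraries 1 to 5 and 46.8, 50.9, 40.9, 51.8 and 62.7 CPM in anti-Ang2 libraries 1 to 5. The highest anti-Ang2 library was well below the lowest IgG library. Ddit4 was 1.98-fold lower, with a log2 fold change of -0.98 ± 0.12 (SE, 95% interval -1.24 to -0.73), edgeR adjusted p = 0.00111 (chr10:59949669-59951834, minus strand). It passed in all 10 leave-one-out fits (adjusted p 0.00096 to 0.00487) and under every other alternative run, among them the melanoma covariate, -0.84 (adjusted p = 0.036), and the macrophage covariate, -0.77 (adjusted p = 0.0122). Ddit4 was one of the more abundant members per length (61 ± 4.6 FPKM in IgG, 31.4 ± 5.51 in anti-Ang2 libraries). Mtor held 62.1, 37.7, 46.3, 52.5 and 56.8 CPM in IgG libraries 1 to 5 and 59.9, 64.3, 52.8, 36.8 and 44.8 CPM in anti-Ang2 libraries 1 to 5. The groups overlapped fully, and the log2 fold change of Mtor was 0.02 ± 0.17 (SE, 95% interval -0.35 to 0.39), edgeR adjusted p = 0.969. Its sign was negative in 4 of the leave-one-out fits. Tsc1 was at 23.6 ± 4.36 CPM (IgG) against 25.2 ± 2.55 CPM (anti-Ang2) (0.09 ± 0.14, adjusted p = 0.799) and Tsc2 at 109 ± 9.17 CPM (IgG) against 102 ± 21 CPM (anti-Ang2) (-0.09 ± 0.13, adjusted p = 0.782). Of the Tsc2 exon bases 7.2% overlap the more abundant Pkd1 on the opposite strand, and the library kit does not mark strand.

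The FOXO factors were dominated by Foxo1, and none of the 3 passed the test. Foxo1 held 264, 307, 273, 283 and 318 CPM in IgG libraries 1 to 5 and 222, 254, 271, 205 and 251 CPM in anti-Ang2 libraries 1 to 5. For Foxo1 4 of 5 anti-Ang2 libraries lay below the lowest IgG library, with a log2 fold change of -0.26 ± 0.09 (SE, 95% interval -0.46 to -0.06), edgeR adjusted p = 0.142. Foxo3 held 7.13, 12.3, 10.4, 7.54 and 6.32 CPM in IgG libraries 1 to 5 and 8.44, 10.0, 11.4, 8.69 and 11.9 CPM in anti-Ang2 libraries 1 to 5. The groups overlapped, and the log2 fold change of Foxo3 was 0.21 ± 0.21 (SE, 95% interval -0.25 to 0.67), edgeR adjusted p = 0.685. Foxo4 held 1.29, 1.17, 1.36, 1.9 and 0.972 CPM in IgG libraries 1 to 5 and 0.869, 1.39, 0.999, 0.953 and 2.04 CPM in anti-Ang2 libraries 1 to 5. Foxo4 was near the lower limit of the tested range, with 38 to 97 counts per library and a log2 fold change of -0.10 ± 0.36 (SE, 95% interval -0.89 to 0.69), edgeR adjusted p = 0.931. By FPKM Foxo1 took 95.6 ± 0.962% of the 3 factors in IgG libraries against 94.3 ± 0.719% after anti-Ang2, Foxo3 3.31 ± 0.893% and 4.52 ± 0.358%, and Foxo4 1.11 ± 0.326% and 1.21 ± 0.411%.

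**Figure D4:**
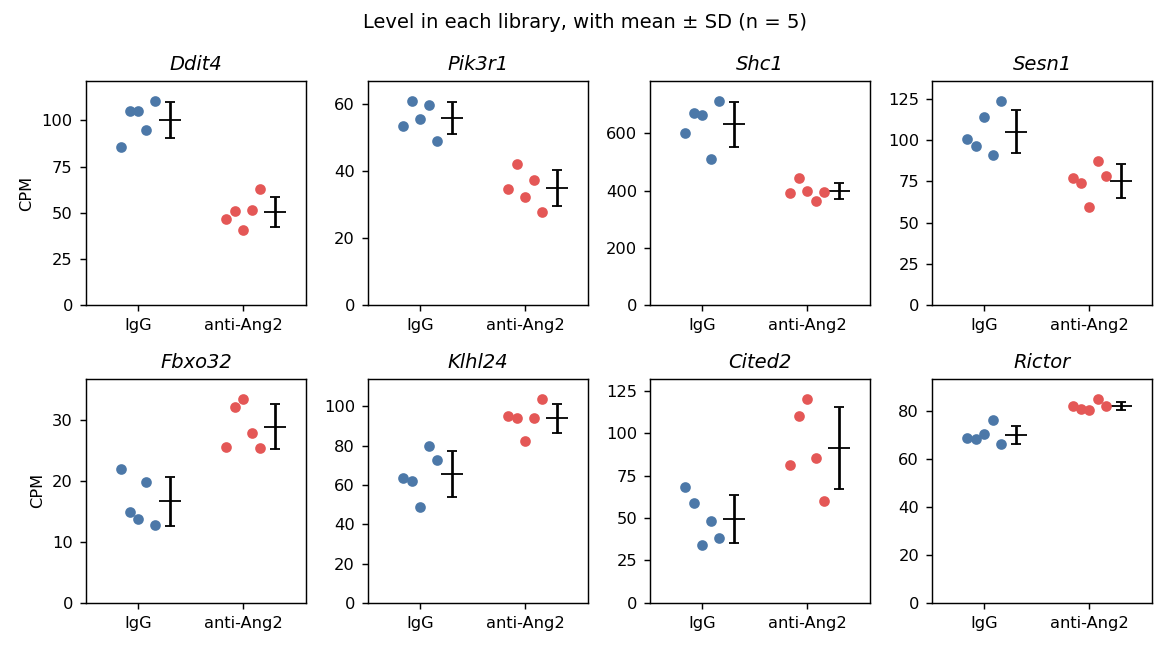
CPM in each library (y axis, starting at 0) of selected members, 1 panel per gene, with 1 point per library and the mean ± SD of each group beside its points (n = 5). Ddit4, Shc1, Pik3r1 and Sesn1 do not overlap between the groups and are lower after anti-Ang2; Fbxo32 and Klhl24 do not overlap and are higher.

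Of the 17 FOXO target genes, Fbxo32 and Klhl24 rose. Fbxo32, also called atrogin-1, encodes the substrate-binding part of a ubiquitin ligase that FOXO factors induce in wasting muscle. Fbxo32 held 22, 14.9, 13.9, 19.8 and 12.7 CPM in IgG libraries 1 to 5 and 25.7, 32.2, 33.5, 27.9 and 25.4 CPM in anti-Ang2 libraries 1 to 5. The groups did not overlap, although the lowest anti-Ang2 library lay close to the highest IgG library. Fbxo32 was 1.74-fold higher, with a log2 fold change of 0.80 ± 0.17 (SE, 95% interval 0.43 to 1.16), edgeR adjusted p = 0.022 (chr15:58175879-58214932, minus strand). It missed the threshold without IgG 2, 3 or 5 (adjusted p = 0.0637, 0.0675 and 0.0529) and without anti-Ang2 2 or 3 (0.0542 and 0.0626). It was also not called after adjustment for the melanoma sum, 0.67 (adjusted p = 0.261), or the macrophage sum, 0.59 (adjusted p = 0.22).

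Klhl24, a substrate adaptor of a cullin ubiquitin ligase, was the other target that rose. Klhl24 held 63.5, 61.8, 49, 79.9 and 72.8 CPM in IgG libraries 1 to 5 and 94.9, 94, 82.6, 94.1 and 104 CPM in anti-Ang2 libraries 1 to 5. All 5 anti-Ang2 libraries were above all IgG libraries. Klhl24 was 1.44-fold higher, with a log2 fold change of 0.52 ± 0.12 (SE, 95% interval 0.25 to 0.79), edgeR adjusted p = 0.0366 (chr16:20097542-20129221, plus strand). The call was close to the threshold: of the 10 leave-one-out fits it held in those without IgG 4 (adjusted p = 0.0208) and without anti-Ang2 3 (0.045), and the other 8 gave an adjusted p of up to 0.0923. The log2 fold change stayed between 0.43 and 0.60 in them. Adjusted for the melanoma sum it was 0.43 (adjusted p = 0.299), and with the macrophage sum 0.60 (adjusted p = 0.135).

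The target that fell was Sesn1, a sestrin that is induced by stress and restrains mTOR. Sesn1 held 101, 96.5, 114, 90.9 and 123 CPM in IgG libraries 1 to 5 and 76.8, 73.9, 59.4, 87.3 and 78.3 CPM in anti-Ang2 libraries 1 to 5. Every anti-Ang2 library was below every IgG library, with anti-Ang2 4 close to IgG 4. Sesn1 was 1.4-fold lower, with a log2 fold change of -0.48 ± 0.11 (SE, 95% interval -0.73 to -0.23), edgeR adjusted p = 0.0394 (chr10:41809935-41908424, plus strand). Among the leave-one-out fits it held in those without IgG 4 (adjusted p = 0.0384) and without anti-Ang2 4 (0.0324), and the other 8 gave an adjusted p of up to 0.107. Adjusted for the melanoma sum the value was -0.27 (adjusted p = 0.437), and with the macrophage sum -0.40 (adjusted p = 0.303). Its relative Sesn3 was at 7.96 ± 1.89 CPM (IgG) against 9.21 ± 2.89 CPM (anti-Ang2) (0.21 ± 0.26, adjusted p = 0.754). By FPKM Sesn1 took 83.1 ± 1.12% of the sestrins in IgG libraries against 78.2 ± 2.93% after anti-Ang2, Sesn2 15.2 ± 0.828% and 19.3 ± 2.21%, and Sesn3 1.67 ± 0.49% and 2.56 ± 0.917%.

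Several targets lay just outside the threshold. Cited2 encodes a coregulator that restrains hypoxia-inducible factors. Cited2 held 68.3, 58.7, 33.9, 48.2 and 38.1 CPM in IgG libraries 1 to 5 and 81.2, 109.8, 120.0, 85.1 and 60.1 CPM in anti-Ang2 libraries 1 to 5. Anti-Ang2 1 to 4 lay above the IgG range and anti-Ang2 5 within it. Cited2 had a log2 fold change of 0.88 ± 0.22 (SE, 95% interval 0.39 to 1.37), edgeR adjusted p = 0.05005, just above the threshold. It passed without IgG 1 (adjusted p = 0.0296) or anti-Ang2 5 (0.0245), while the other 8 such fits gave up to 0.122, and it also passed with RLE scaling, 0.89 (adjusted p = 0.0481), and in DESeq2, 0.89 (adjusted p = 0.00224). Adjusted for the melanoma sum Cited2 was 0.51 (adjusted p = 0.508), and without anti-Ang2 1, 2 and 3 0.54 (adjusted p = 0.359). Gadd45a is a stress gene of growth arrest and DNA repair. Gadd45a held 19.4, 16.6, 19.3, 18.5 and 13.1 CPM in IgG libraries 1 to 5 and 22.6, 31.4, 24.4, 24.3 and 22.5 CPM in anti-Ang2 libraries 1 to 5. The groups did not overlap, and anti-Ang2 2 stood above the rest. The log2 fold change of Gadd45a was 0.52 ± 0.14 (SE, 95% interval 0.21 to 0.83), edgeR adjusted p = 0.0643, and 19.1% of its exon bases overlap E230016M11Rik on the opposite strand, which had a mean of 89.4 counts against 1036 of Gadd45a.

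Rictor encodes the scaffold of the mTOR complex that phosphorylates AKT. Rictor held 68.8, 68.3, 70.2, 75.9 and 66 CPM in IgG libraries 1 to 5 and 81.9, 80.8, 80.2, 84.8 and 82.1 CPM in anti-Ang2 libraries 1 to 5. The groups did not overlap and were narrow, with coefficients of variation of 5.32% in IgG and 2.17% in anti-Ang2 libraries. The log2 fold change of Rictor was 0.23 ± 0.06 (SE, 95% interval 0.094 to 0.37), edgeR adjusted p = 0.0659. DESeq2 gave 0.24 (adjusted p = 0.000739). Rictor passed in no leave-one-out fit (adjusted p 0.0547 to 0.145). It was 0.21 (adjusted p = 0.344) adjusted for the melanoma sum and 0.24 (adjusted p = 0.281) for the macrophage sum. Txnip, an inhibitor of thioredoxin and of glucose uptake, was the most abundant member per length (265 ± 40.1 FPKM in IgG and 191 ± 51.4 in anti-Ang2 libraries). Txnip held 631, 739, 838, 814 and 1012 CPM in IgG libraries 1 to 5 and 476, 468, 464, 751 and 678 CPM in anti-Ang2 libraries 1 to 5. For Txnip 3 anti-Ang2 libraries were below the IgG range and 2 within it. Txnip had a log2 fold change of -0.51 ± 0.17 (SE, 95% interval -0.88 to -0.14), edgeR adjusted p = 0.123. Txnip passed in DESeq2, at -0.50 (adjusted p = 0.0399), and without anti-Ang2 4 and 5, at -0.79 (adjusted p = 0.0129). It was -0.19 (adjusted p = 0.637) without anti-Ang2 1, 2 and 3, -0.27 (adjusted p = 0.623) adjusted for the melanoma sum and -0.27 (adjusted p = 0.658) for the macrophage sum.

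Pdk4, which turns off the entry of pyruvate into the mitochondrial cycle and is a classical FOXO target in muscle and liver, was near absent, with 1 to 207 counts per library. Pdk4 held 3.75, 1.41, 1.34, 1.68 and 0.87 CPM in IgG libraries 1 to 5 and 4.0, 1.08, 1.5, 0.0191 and 0.357 CPM in anti-Ang2 libraries 1 to 5. Its log2 fold change was -0.38 ± 0.88 (SE, 95% interval -2.30 to 1.54), edgeR adjusted p = 0.882, with one of the widest intervals of the members. The other targets did not pass the test. Pik3ip1, an inhibitor of PI3-kinase, was at 7.12 ± 2.45 CPM (IgG) against 11.7 ± 5.21 CPM (anti-Ang2) (0.72 ± 0.31, adjusted p = 0.251). Mxi1, a Myc antagonist, had 0.33 ± 0.22, adjusted p = 0.498, and the cyclin Ccng2 0.27 ± 0.15, adjusted p = 0.38. The pseudokinase gene Trib1 had -0.25 ± 0.13, adjusted p = 0.367. The antioxidant enzymes Sod2 (0.11 ± 0.07, adjusted p = 0.445) and Cat (-0.06 ± 0.06, adjusted p = 0.729) and the cell cycle inhibitor Cdkn1b (0.01 ± 0.12, adjusted p = 0.985) had 95% intervals between -0.25 and 0.27. The repressor Bcl6 was low, at 9.86 ± 3.95 CPM (IgG) against 8.82 ± 2.29 CPM (anti-Ang2) (-0.16 ± 0.28, adjusted p = 0.837).

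To show where FOXO recognition motifs lie near the start of such targets, promoter windows from 250 bases before to 50 bases after the annotated start were taken from RefSeq (GRCm38.p6). Of the 41 members 35 matched, with 50 windows. The targets Fbxo32, Klhl24 and Trib1 and the signalling members Insr, Dok2 and Foxo4 had no window and were not searched. The FOXO recognition motif GTAAACA was searched on both strands. It was found in 3 of 18 windows of the target members (16.7%), from Sesn1, Txnip and Mxi1, in 2 of 32 windows of the signalling members (6.25%), from Akt1 and Pik3cg, and in 3.65% of all 32851 promoter windows. In the list of other FOXO targets described further on it was in 4 of 31 windows (12.9%), from Bbc3, Bcl2l11, Selenop and Trim63. The variant ATAAACA was in 0 of 18, 1 of 32 (3.125%) and 4.597% of them, and the shorter core AAACA, which both longer motifs contain, in 16 of 32 signalling windows, 9 of 18 target windows and 50.543% of all windows. The windows of the target genes with the longer motif are given below from 5′ to 3′ on the gene's strand with the motif in capitals, together with that of Bcl2l11, picked from those 4 because it rose. The motif starts 22 bases after the start site in Sesn1 (chr10:41810324-41810623, reverse strand) and at positions -121, -231 and -227 relative to it in Txnip (chr3:96557707-96558006), Mxi1 (chr19:53329445-53329744) and Bcl2l11 (chr2:128125788-128126087); all 4 genes are on the plus strand. The windows of Sesn1 and Mxi1 lie downstream of the gene starts in GENCODE (chr10:41809935 and chr19:53310518), so their RefSeq starts are internal ones. Among the 3 target members Sesn1 fell, and Txnip and Mxi1 did not pass the test. Bcl2l11 rose, but it was picked for that. The other genes with the motif, Bbc3, Selenop, Trim63, Akt1 and Pik3cg, were not among the called genes. A match of letters is a description and does not show binding.
Sesn1: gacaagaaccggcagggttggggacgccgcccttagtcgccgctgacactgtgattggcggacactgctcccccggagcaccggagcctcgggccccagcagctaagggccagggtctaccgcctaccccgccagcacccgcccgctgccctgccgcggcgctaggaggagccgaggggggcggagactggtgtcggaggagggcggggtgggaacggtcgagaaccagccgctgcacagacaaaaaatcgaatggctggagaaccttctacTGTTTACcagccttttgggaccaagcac
Txnip: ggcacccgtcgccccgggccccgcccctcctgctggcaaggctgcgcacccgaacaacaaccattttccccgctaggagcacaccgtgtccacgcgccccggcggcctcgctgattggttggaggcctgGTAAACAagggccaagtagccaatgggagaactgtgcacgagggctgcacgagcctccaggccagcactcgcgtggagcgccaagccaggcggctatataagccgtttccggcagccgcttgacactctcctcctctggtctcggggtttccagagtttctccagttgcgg
Mxi1: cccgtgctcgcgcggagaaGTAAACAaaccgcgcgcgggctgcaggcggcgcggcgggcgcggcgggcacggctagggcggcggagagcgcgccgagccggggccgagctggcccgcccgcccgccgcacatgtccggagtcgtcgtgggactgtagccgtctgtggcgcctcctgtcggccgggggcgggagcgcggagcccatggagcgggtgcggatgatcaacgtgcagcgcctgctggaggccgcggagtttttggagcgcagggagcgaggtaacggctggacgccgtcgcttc
Bcl2l11: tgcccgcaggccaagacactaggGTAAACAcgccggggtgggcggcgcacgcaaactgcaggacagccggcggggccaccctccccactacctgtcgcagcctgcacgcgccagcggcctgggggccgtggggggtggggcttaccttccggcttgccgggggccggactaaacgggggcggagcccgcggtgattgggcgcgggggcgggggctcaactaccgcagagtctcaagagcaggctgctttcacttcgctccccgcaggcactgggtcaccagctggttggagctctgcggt

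The rest of the pathway was examined with a list of 54 other genes, of which 53 were in the table and 52 were tested. The list was chosen with earlier results of these data known. Of the tested genes 3 rose and 4 fell (13.5%, against 4.13% of all tested genes), with a median log2 fold change of 0.0018. Of the 4 that fell, 3 encode endothelial receptors. The Ang2 receptor Tek was at 503 ± 88.7 CPM (IgG) against 202 ± 38.5 CPM (anti-Ang2) (-1.32 ± 0.16, adjusted p = 0.00116), its relative Tie1 at 1519 ± 199 CPM (IgG) against 1067 ± 72.4 CPM (anti-Ang2) (-0.51 ± 0.10, adjusted p = 0.014) and the VEGF receptor Kdr at 1349.7 ± 228 CPM (IgG) against 777 ± 119 CPM (anti-Ang2) (-0.80 ± 0.14, adjusted p = 0.00781). Trib2, a pseudokinase that binds signalling kinases, was at 77.4 ± 10.2 CPM (IgG) against 49.8 ± 4.11 CPM (anti-Ang2) (-0.64 ± 0.10, adjusted p = 0.00546). The docking protein Gab1, which recruits Pik3r1 and Ptpn11, rose from 95.4 ± 17.4 to 157 ± 17.8 CPM (0.72 ± 0.13, adjusted p = 0.00803). These 5 passed in all 10 leave-one-out fits. Trib3, an AKT-binding pseudokinase, and the growth factor receptor Igf1r also rose (0.53 ± 0.13, adjusted p = 0.0442, and 0.58 ± 0.15, adjusted p = 0.0487), but Trib3 kept its call in 1 (without IgG 1) and Igf1r in 2 (without IgG 4 or anti-Ang2 1) of those fits, with adjusted p values of up to 0.114 and 0.126.

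A second list held 34 other known FOXO targets, of which 33 were in the table and 30 were tested. It too was chosen with earlier results known, so its count is no independent evidence. Of the tested genes 6 rose and 1 fell (23.3%, against 4.13% of all tested genes), with a median log2 fold change of 0.07. Angpt2, which encodes the antibody's own target, went from 769 ± 279 to 3222 ± 533 CPM (2.07 ± 0.22, adjusted p = 0.001), and Esm1, a proteoglycan of activated endothelium, from 74.7 ± 21.8 to 204 ± 71.3 CPM (1.45 ± 0.25, adjusted p = 0.00857). Pink1 and Gabarapl1, genes of mitophagy and autophagy, rose by 0.31 ± 0.06, adjusted p = 0.0172, and 0.39 ± 0.09, adjusted p = 0.0278. The pro-apoptotic Bcl2l11 rose by 0.51 ± 0.12, adjusted p = 0.0366, and the transcription factor Klf6 by 0.46 ± 0.10, adjusted p = 0.0259. The nitric oxide synthase Nos3, a gene that FOXO1 represses, fell from 295 ± 108 to 110.1 ± 31.7 CPM (-1.42 ± 0.28, adjusted p = 0.0163). Angpt2 and Esm1 passed in all 10 leave-one-out fits. Pink1 and Nos3 failed without IgG 3 (adjusted p = 0.0624 and 0.0506), while Klf6, Gabarapl1 and Bcl2l11 held in 6, 4 and 3 of the 10 fits (up to 0.0804, 0.0854 and 0.0955). Other settings cost more calls. Of the called members and the called genes of the 2 lists together, 16 lost their call with the melanoma sum and 17 with the macrophage sum. Without anti-Ang2 1, 2 and 3, 14 of them did.

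**Figure D5:**
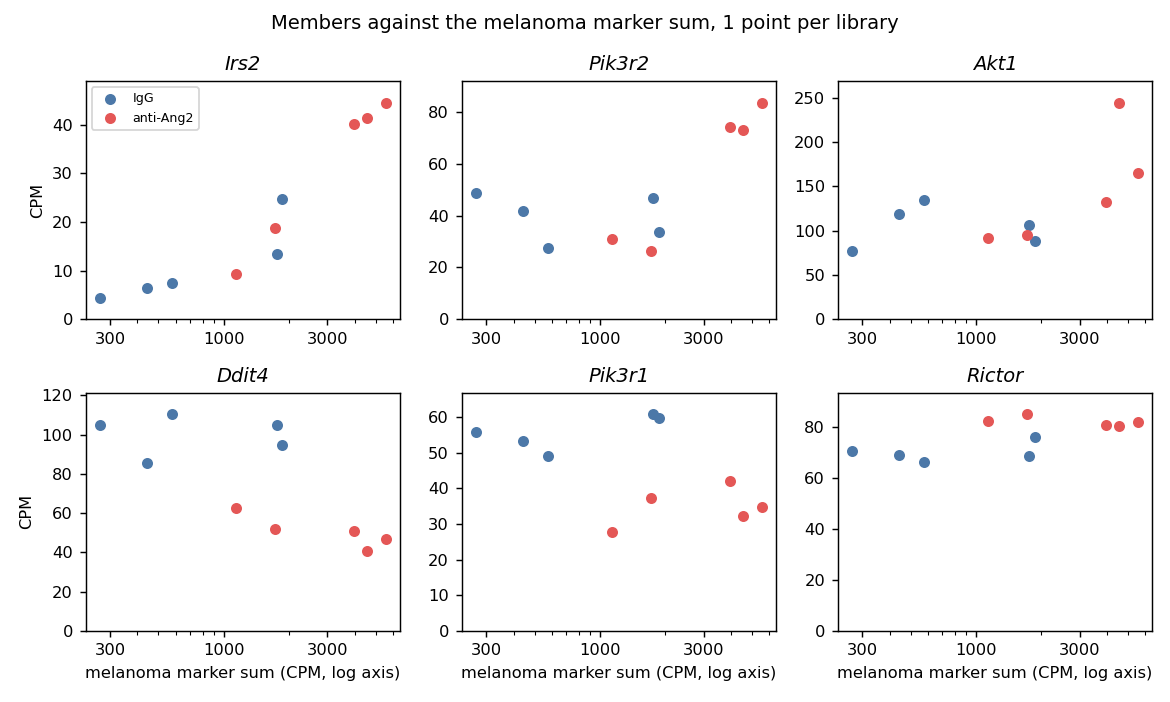
CPM of 6 members (y axis, starting at 0) against the summed CPM of 12 melanoma markers (x axis, log scale), 1 point per library, coloured by group. Irs2 is highest in the 3 anti-Ang2 libraries with the highest sums, whereas the anti-Ang2 points of Ddit4, Pik3r1 and Rictor lie apart from the IgG points also where the sums overlap.

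Anti-Ang2 4 and 5, whose melanoma sums lay within the IgG range, gave a second view of the same values. In a fit without anti-Ang2 1, 2 and 3, which rests on 2 anti-Ang2 libraries, Ddit4 (-0.82, adjusted p = 0.0403), Pik3r1 (-0.78, adjusted p = 0.0485) and Shc1 (-0.74, adjusted p = 0.0479) passed. Fbxo32 (0.67, adjusted p = 0.2), Klhl24 (0.59, adjusted p = 0.137) and Sesn1 (-0.35, adjusted p = 0.26) did not. In the fit without anti-Ang2 4 and 5, 5 of the 6 passed and Klhl24 did not (0.46, adjusted p = 0.099).

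In the authors' deposited table, which holds log2 fold changes and adjusted p-values from their own test, 9.09% of 18359 genes had an adjusted p under 0.05. Of the 41 members 11 did, 6 higher and 5 lower, and these include all 6 genes called by edgeR. The other 5 in the authors' deposited table were Cited2 (0.77, adjusted p = 0.00271), Gadd45a (0.46, 0.00719), Rictor (0.23, 0.0009) and Irs2 (1.06, 0.0303) as higher and Txnip (-0.39, 0.047) as lower. The deposited log2 fold changes can differ from those of DESeq2 run here. For Irs2 they were 1.06 against 1.46, for Dok2 0.014 against 0.83 and for Ddit4 -0.94 against -0.98.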

How the data were processed

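LEC RNA from 10 melanoma-bearing mice was sequenced, and groups follow the treatment label. The library kits, SMART-Seq v4 and NEBNext per the labels' protocols, do not mark strand. STAR, featureCounts and DESeq2 with mm10 made the table, per the submitters' processing notes. The sources used here do not give their versions, the annotation or whether strand was counted. Per the file headers, the deposited table holds raw counts per gene and library, FPKM per library, and the log2 fold changes and p-values of the authors. All tests used the counts, the deposited FPKM entered the family shares, and 10 deposited TPM columns and 0 columns of other series were not used. Of 23510 rows, 23435 had an ID in GENCODE M21, the source of coordinates. Exon overlaps were counted from the same annotation.

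Counts were tested with edgeR 4.0.16 in R 4.3.3 (quasi-likelihood F test, two-sided, TMM, filterByExpr with a minimum count of 10 and total of 15, no covariate, Benjamini-Hochberg over 16240 genes). The SE derives from the same F statistic. The procedure was also run on counts simulated from the fitted values, with an outcome not given here. Depth was 38090933 to 83850341 counts per library, so counting error is small except for genes with few counts; reads carry no molecular identifiers. Alternatives were RLE scaling, no filter, DESeq2 1.42.0, a replicate block, the melanoma or macrophage marker sum (log2) as a covariate, sets of libraries left out, and each library left out in turn. Tables and figures used Python 3.11.15 with pandas 2.3.3, numpy 2.4.6 and matplotlib 3.10.9; limma 3.58.1 came with edgeR.

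The members, gene lists and marker lists were chosen with earlier results of these data known, so their counts are no independent evidence. Values in every library are given for called members, the 8 uncalled members with the smallest p, and Pik3ca, Akt1, Akt2, Foxo1, Foxo3, Foxo4, Mtor and Pdk4. From the 2 lists of other genes the called ones are named.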

Additional observations from a re-analysis of the deposited data

Results flagged for a closer look

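The 5 libraries of each group were checked for 1 library far from the others in each of the 41 members, 82 groups of values in all. A gap of over 0.71 of the group's range counted, which chance gives for about 1 in 20 groups; 3 were found. Tsc2 was highest in IgG 5, at 124.8 CPM. Gadd45a was highest in anti-Ang2 2, at 31.4 CPM. Pdk4 was highest in IgG 1, at 3.75 CPM, from few counts.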

How the results depend on the processing

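The 3 signalling genes that fell did so with every alternative except the covariates, of which the melanoma sum left 2 (without Shc1) and the macrophage sum 1 (Ddit4), and leaving out 1 library gave 3 throughout. The signalling count of higher genes, 0, was 1 with DESeq2 and 4 without anti-Ang2 4 and 5. Of FOXO targets, 2 higher and 1 lower became 3 and 1 with RLE scaling (Cited2 added), 1 and 0 without the filter, 5 and 2 with DESeq2, 0 and 0 with the melanoma sum, 0 and 0 with the macrophage sum, 0 and 0 without anti-Ang2 1, 2 and 3, and 2 and 2 without anti-Ang2 4 and 5. Leaving out 1 library gave 0 to 2 higher (0 without IgG 2, 3 or 5 or anti-Ang2 2) and 0 to 1 lower (1 without IgG 4 or anti-Ang2 4). Over all genes, 217 higher and 454 lower became 810 and 880 with DESeq2, 24 and 91 with the melanoma sum, 27 and 102 with the macrophage sum, 55 and 178 without anti-Ang2 1, 2 and 3, and 531 and 598 without anti-Ang2 4 and 5. Leaving out 1 library gave 82 to 326 and 259 to 468.

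Same-numbered libraries did not resemble each other: correlations of their deviations from the group means ran from -0.125 to 0.113. Such values cannot exclude a processing step that same-numbered mice shared. With the replicate block the target counts were 1 higher (Klhl24) and 0 lower, and over all genes 82 and 268. Fbxo32 then had an adjusted p of 0.0738 and Sesn1 of 0.119; Ddit4, Shc1, Pik3r1 and Klhl24 passed.

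None of the 6 called genes changed sign in the settings named next. Of the uncalled genes, 11 changed sign with the melanoma sum, 6 with the macrophage sum, 10 without anti-Ang2 1, 2 and 3, 6 without anti-Ang2 4 and 5, 3 with the replicate block and 1 without the filter. With the melanoma sum Pik3r2 was -0.022, Pik3r3 -0.69, Irs1 -2.38, Dok2 -2.48, Grb2 0.019, Sesn3 -0.31, Mxi1 -0.17, Irs2 -0.16, Akt1 -0.015, Foxo4 0.020 and Mtor -0.088; with the macrophage sum Pik3r3 was -0.27, Dok2 -0.90, Bcl6 0.054, Mxi1 -0.046, Foxo4 0.17 and Mtor -0.11. Without anti-Ang2 1, 2 and 3 Pik3cg was -0.020, Pik3r2 -0.48, Pik3r3 -0.56, Irs1 -3.70, Dok2 -4.00, Sesn3 -0.26, Mxi1 -0.072, Akt1 -0.19, Foxo4 0.15 and Mtor -0.33, and without anti-Ang2 4 and 5 Pik3c2b was -0.061, Insr -0.022, Pdpk1 -0.15, Tsc2 0.049, Cdkn1b -0.039 and Pdk4 0.27. Leaving out 1 library, Foxo4 ran from -0.34 to 0.059 (positive without IgG 4 or anti-Ang2 1), Pdk4 from -1.29 to 0.071 (positive without IgG 1) and Mtor from -0.073 to 0.12 (negative without IgG 2 or 3, or without anti-Ang2 1 or 2). The cause was not tested. Dok2, Irs1 and Pdk4 had the largest standard errors of the 41 genes, with counts of 0, 0 and 1 in the lowest library.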
